A study of Homo sapiens with 4 samples.

Results

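The genes of matrix metalloproteinases (MMPs), ADAM and ADAMTS proteases, ADAMTS-like proteins and tissue inhibitors of metalloproteinases (TIMPs) were taken from the gene expression table by their symbols, which gave 74 genes of 23615. They were 24 MMPs, 4 TIMPs, 22 ADAMs, 19 ADAMTS genes and 5 ADAMTS-like genes. Poly-A RNA of unsorted cultures was sequenced on day 14 for 2 populations of cardiomyocytes, with 2 biological replicates of each, to compare cardiomyocytes of progenitor origin with cardiomyocytes redirected from endothelium. All 4 libraries came from RUES2, a single human embryonic stem cell line, and from cells called A100/B5, for which induction used activin A at 100 ng/ml with BMP4 at 5 ng/ml and the Wnt activator CHIR-99021. In the CPC group these cells went through cardiac progenitor cells under cardiac conditions, a protocol that can include XAV-939 (XAV), a tankyrase inhibitor that blocks Wnt/β-catenin signaling, at 1 µM on day 3. The sample labels do not say whether these CPC cultures received it. In the ECsXAV group the cells were moved on day 2 into medium with VEGF (200 ng/ml), bFGF (5 ng/ml), BMP4 (10 ng/ml) and ascorbic acid (50 µg/ml), which directs them to anterior hemogenic endothelial cells (ECs), and XAV was added at 2 µM on day 5. The names of the samples begin differently in each group, and what the prefix stands for is not stated, so anything it marks cannot be told apart from the group.

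Most of these genes encode zinc-dependent enzymes that cut proteins outside the cell, or their inhibitors. Among the members, MMP23A and ADAM5 are annotated as pseudogenes and ADAM6 as a long noncoding RNA. MMPs degrade collagens and other matrix proteins, ADAMs mostly release the outer parts of membrane proteins such as growth factor precursors, and ADAMTS enzymes cut proteoglycans, procollagens and other secreted matrix proteins. TIMPs block the active site of MMPs and, for some members, of ADAM and ADAMTS enzymes, and in the developing heart this system is known for its part in the turnover of cardiac jelly, cushion and valve matrix.

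Levels are FPKM, fragments of a gene divided by its exon length and by the mapped fragments of the library. Depth in reads is unknown, but the ratio of the lowest FPKM between libraries placed ECsXAV replicate 2 at 50.1% of the depth of ECsXAV replicate 1, and the CPC libraries at 79.8% to 86.9% of it, so low values are coarsest in ECsXAV replicate 2. The 7 cardiomyocyte markers summed to 12636 to 12975 FPKM in ECsXAV and 12285 to 12939 FPKM in CPC libraries. Of these only MYH6 was called, at 855 and 857 FPKM in ECsXAV and 2070 and 1901 FPKM in CPC. Its adjusted p was 0.0358 from limma. The 8 endothelial markers summed to 11.9 to 12.9 FPKM in ECsXAV and 10.6 to 13.2 FPKM in CPC, most of it KDR at 7.06 to 10.8 FPKM, and neither of the 2 that were tested was called. PECAM1 was at 0.233 FPKM or lower and VWF at 0.021 FPKM or lower in every library. CDH5 (1.19 and 1.49 FPKM in ECsXAV, 0.875 and 0.649 FPKM in CPC), ESAM and TEK were low and higher in ECsXAV without overlap. PTPRC and NANOG were listed at 0 in all libraries. Some markers of other cell types also differed between the groups. LUM was the only one of the 3 tested stromal markers to pass the test, at 8.21 and 10.7 FPKM in ECsXAV and 0.652 and 0.473 FPKM in CPC, and the list of 8 summed to 28.8 to 31.6 and 19.5 to 25.4 FPKM. Smooth muscle markers summed to 261 to 291 FPKM in ECsXAV and 136 to 162 FPKM in CPC, with TAGLN past the test. The other tested stromal and smooth muscle markers lay in both directions and were not called. CNN1 had 94.2 and 94.9 FPKM in ECsXAV and 45.5 and 60.5 FPKM in CPC. ACTA2 had 80.5 and 57.5 FPKM in ECsXAV and 74.2 and 78.5 FPKM in CPC. PDGFRA and POSTN were slightly higher in CPC on the means. Hepatic or endoderm markers summed to 33.4 to 41.4 and 16.6 to 18.7 FPKM, with AFP, APOA2 and TTR past the test. Of the epithelial markers, KRT19 had 178 and 223 FPKM in ECsXAV and 82.1 and 128 FPKM in CPC. EPCAM had 5.04 and 5.53 FPKM in ECsXAV and 2.74 and 2.76 FPKM in CPC. KRT19 and EPCAM did not overlap between the groups and were not called. In bulk libraries, fewer cells of a type and less RNA per cell cannot be told apart. KRT8 and KRT18, which reached 99.0 and 60.7 FPKM in ECsXAV replicate 2, were listed at 0 in ECsXAV replicate 1 and CPC replicate 2, so a gene given as 0 here was listed at 0 and not shown to be silent.

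A mean of at least 1 FPKM over the libraries was reached by 33 of the 74 members (44.6%) and by 12398 of the 23615 genes (52.5%). The others comprised 27 members at low values and 14 that were listed at 0 in all 4 libraries, namely MMP3, MMP7, MMP8, MMP12, MMP20, MMP21, MMP23A, MMP26, MMP27, TIMP4, ADAM2, ADAM6, ADAM29 and ADAM30. The highest of the low members was ADAMTS14, a procollagen N-proteinase, at 1.05 and 0.909 FPKM in ECsXAV and 0.731 and 0.549 FPKM in CPC. The best covered members were MMP15, TIMP1, TIMP3, ADAMTSL4, ADAM10, ADAM11, ADAMTS1, ADAMTS9, TIMP2 and ADAMTS19, in this order of mean FPKM. The 9 MMP genes of the cluster on chromosome 11 (GRCh37, 102391239 to 102826461), which holds among others the interstitial collagenases, the stromelysins MMP3 and MMP10, matrilysin and macrophage elastase, included 6 of those listed at 0, and the highest value of any of them in any library was 0.638 FPKM, for MMP1.

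Differences were tested with limma on log2(FPKM + 1), as CPC minus ECsXAV, a scale that understates the change of low genes, and a gene was called where the Benjamini-Hochberg adjusted p over all 12398 genes was under 0.05 and the fold change of FPKM + 1 was over 2. Of the 33 members tested, 4 were called, MMP2, ADAM19, ADAMTS6 and ADAMTSL1, and all were higher in the ECsXAV libraries. These are values of whole unsorted cultures. Over all genes tested, 2.15% were called, and 1.44% were called as higher in ECsXAV. By the unadjusted p alone, 16 members (48.5%) had a limma p under 0.05, of which 9 were higher in ECsXAV and 7 in CPC, beside 18.2% of all genes. The libraries of the groups did not overlap for 25 members (75.8%), beside 49.8% of all genes. The median log2 fold change of the 33 was 0.00067, beside -0.0045 over all genes tested, with 16 members lower and 17 higher in CPC. For 19 members the 95% interval lay within a 2-fold change in either direction. The calls needed both replicates of both groups and did not hold with any 1 library left out. In those fits the log2 fold change ran from -1.24 to -1.07 for MMP2 and from -1.29 to -1.06 for ADAM19. It ran from -1.17 to -1.08 for ADAMTS6 and from -1.19 to -1.17 for ADAMTSL1. With no filter on low FPKM, limma called 0 of 60 members and 20 of 18772 genes.

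**Figure D1:**
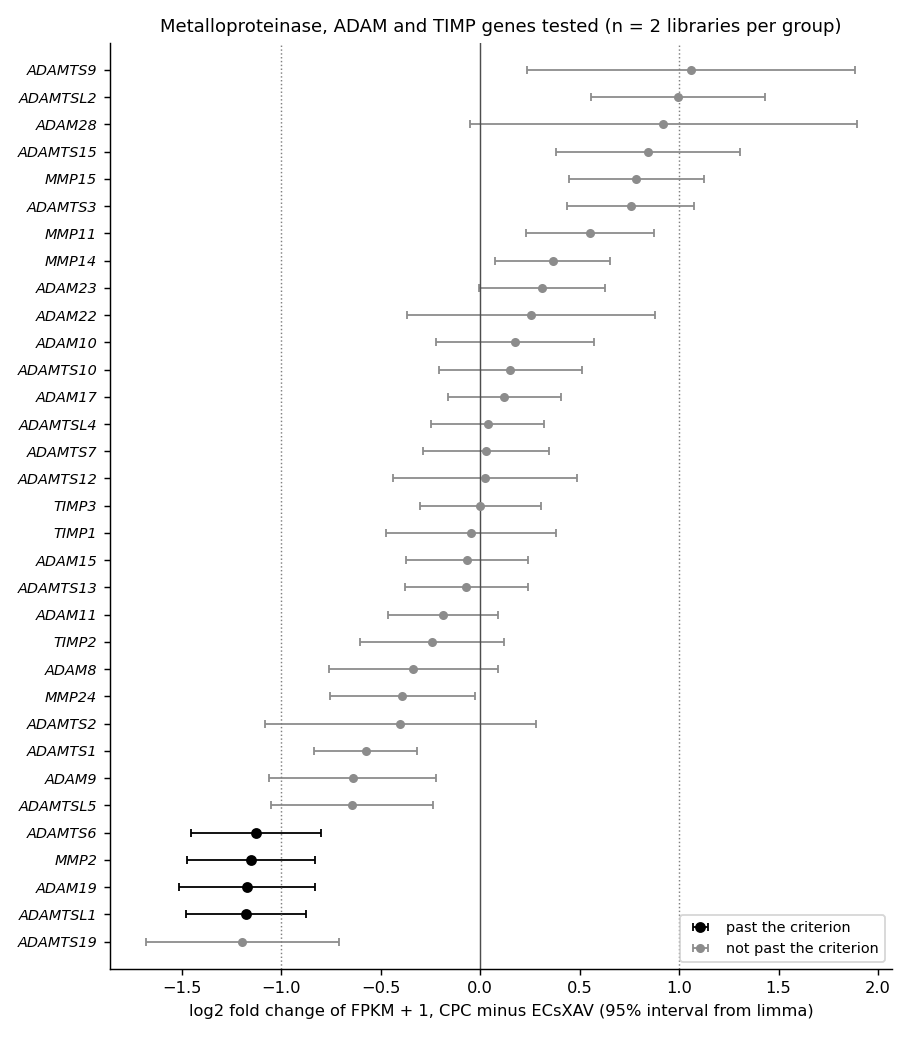
Log2 fold change of FPKM + 1 (CPC minus ECsXAV, x axis) of the 33 members tested (y axis, ordered by the change), with 95% intervals from limma over 2 libraries per group. Black points are the 4 members past the criterion, dotted lines mark a 2-fold change, and members lie on both sides of 0, from -1.19 for ADAMTS19 to 1.06 for ADAMTS9.

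Among the gelatinases, MMP2 (gelatinase A, which cuts denatured collagen and type IV collagen) carried nearly all of the signal. MMP2, on chromosome 16 from 55423612 to 55540603 (GRCh37), stood at 16.5 and 18.4 FPKM in ECsXAV and at 6.83 and 7.81 FPKM in CPC libraries. Both ECsXAV libraries were above both CPC libraries, by 2.39-fold on the means, and the log2 fold change was -1.15 (SE 0.12, adjusted p = 0.0268 from limma). Its adjusted p was 0.105 to 0.177 when 1 library was left out and 0.070 with no filter on low FPKM. MMP9, the other gelatinase, was at 0.148 and 0.211 FPKM in ECsXAV and 0.146 and 0.239 FPKM in CPC, and its libraries overlapped. The stromal marker LUM and the smooth muscle marker TAGLN were higher in the same libraries as MMP2. CNN1 and the low stromal markers DCN, THY1, DDR2, PDGFRB and TCF21 were also higher there. PDGFRA, POSTN, ACTA2 and MYH11 of the same lists were not higher there on the means. The part of these cell types in the result was not tested.

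None of the 3 membrane-type MMPs tested, which act at the cell surface, was called. MMP15 (MT2-MMP), the member with the highest level, had 57.5 and 68.1 FPKM in ECsXAV and 105 and 112 FPKM in CPC. Both CPC libraries were higher, by 1.73-fold on the means, but with a log2 fold change of 0.79 (SE 0.13, 95% interval 0.44 to 1.13) the adjusted p of 0.0593 from limma was above the threshold. MMP14 (MT1-MMP), the main activator of pro-MMP2, had 8.40 and 9.21 FPKM in ECsXAV and 11.3 and 11.9 FPKM in CPC, which was not called (log2 fold change 0.36, adjusted p = 0.183 from limma). MMP24 (MT5-MMP) lay the other way without overlap, at 2.28 and 2.42 FPKM in ECsXAV and 1.69 and 1.43 FPKM in CPC (log2 fold change -0.39, adjusted p = 0.246 from limma). The groups did not overlap for any of the 3. MMP16 (MT3-MMP) was below the filter at 0.118 and 0.147 FPKM in ECsXAV and 0.721 and 0.323 FPKM in CPC, MMP25 was at 0.540 and 0.619 FPKM in ECsXAV and 0.326 and 0.355 FPKM in CPC, and MMP17 did not exceed 0.041 FPKM.

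MMP11 (stromelysin-3, which furin activates inside the cell) was the only stromelysin above the filter. It had 4.17 and 4.51 FPKM in ECsXAV and 7.28 and 6.41 FPKM in CPC, higher in both CPC libraries but not called (log2 fold change 0.55, adjusted p = 0.104 from limma). MMP10 (stromelysin-2) had 0.174 and 0.289 FPKM in ECsXAV and was listed at 0 in both CPC libraries. MMP28 (epilysin) likewise had 0.0549 and 0.361 FPKM in ECsXAV and was listed at 0 in CPC. The collagenase MMP1 was at 0.638 and 0.265 FPKM in ECsXAV and 0.0611 and 0.200 FPKM in CPC, and MMP23B was at 0.522 and 0.608 FPKM in ECsXAV and 0.301 and 0.218 FPKM in CPC. These low members were higher in ECsXAV in every library, at levels that rest on few fragments, and they were not part of the main test. MMP23A and MMP23B are near-identical copies, so their split between a gene at 0 and a gene with signal is uncertain. MMP13 and MMP19 did not exceed 0.0823 FPKM.

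The TIMPs were at high and similar levels in both groups. TIMP1 had 44.5 and 53.7 FPKM in ECsXAV and 42.4 and 52.9 FPKM in CPC. TIMP3, which binds to the matrix and also inhibits ADAM17 and aggrecanases, had 46.3 and 45.5 FPKM in ECsXAV and 49.1 and 42.9 FPKM in CPC. The libraries overlapped for both genes. TIMP2, which takes part with MMP14 in the activation of pro-MMP2, had 16.9 and 19.9 FPKM in ECsXAV and 14.2 and 16.6 FPKM in CPC, slightly lower in CPC without overlap. None passed the test by limma (0 of 3 tested, and 0 at an unadjusted p under 0.05), and the 95% intervals of the log2 fold changes were -0.47 to 0.38 for TIMP1, -0.60 to 0.12 for TIMP2 and -0.30 to 0.31 for TIMP3, all narrower than a 2-fold change. TIMP4, known for its expression in the adult heart, was listed at 0 in all libraries.

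Shares within a library do not depend on the scaling between libraries, and MMP15 took a larger and MMP2 a smaller share in both CPC libraries. MMP15 made up 63.1% and 64.8% of the summed MMP FPKM in the ECsXAV replicates and 78.6% and 79.5% in the CPC replicates. MMP2 made up 18.1% and 17.5% in ECsXAV and 5.09% and 5.54% in CPC, a difference of means of -12.5 percentage points, beside an SD of 0.426 in ECsXAV and 0.318 in CPC. MMP14 differed little, with 8.98% ± 0.318 in ECsXAV and 8.45% ± 0.0088 in CPC (SD, n = 2). Each of these 3 differences had the smallest p that 2 libraries against 2 allow in a two-sided exact permutation test, 0.33. The share of MMP15 was added after the values had been seen.

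**Figure D2:**
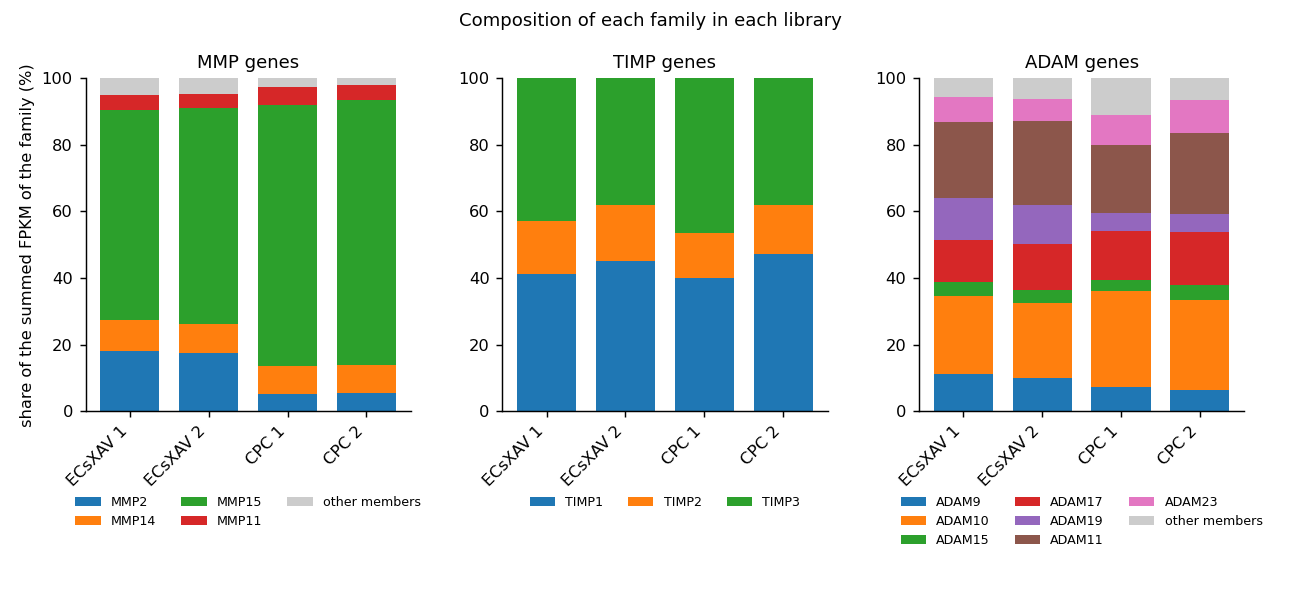
Share of each member in the summed FPKM of its family (y axis, percent) in each of the 4 libraries (x axis), for MMPs, TIMPs and ADAMs. MMP15 takes 63.1% and 64.8% of the MMP signal in ECsXAV and 78.6% and 79.5% in CPC, while the TIMP shares overlap for TIMP1 and TIMP3.

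Summed over all 24 MMPs, the libraries held 91.2 and 105 FPKM in ECsXAV and 134 and 141 FPKM in CPC. The summed TIMPs were at 108 and 119 FPKM in ECsXAV and 106 and 112 FPKM in CPC. The ratio of MMP to TIMP FPKM was 0.846 and 0.884 in ECsXAV and 1.27 and 1.25 in CPC (exact permutation p = 0.33, the smallest possible). Without MMP15 the ratio was 0.313 and 0.311 in ECsXAV and 0.272 and 0.258 in CPC, in the other direction. Leaving out MMP15, the member of highest level and itself higher in both CPC libraries, favors that direction. The ratio of MMP2 to TIMP2 was 0.976 and 0.927 in ECsXAV and 0.481 and 0.471 in CPC. These ratios were not among the planned comparisons. They are ratios of transcripts, and enzyme activity was not measured.

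Of the TIMP sum, TIMP1 took 41.3% and 45.1% in ECsXAV and 40.1% and 47.1% in CPC, and TIMP3 took 43.0% and 38.2% in ECsXAV and 46.5% and 38.2% in CPC (exact permutation p = 1 for both). TIMP2 took 16.2% ± 0.697 in ECsXAV and 14.1% ± 0.937 in CPC (SD, n = 2, exact permutation p = 0.33). The TIMP1 and TIMP3 shares overlapped between the groups and that of TIMP2 did not.

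ADAM19 (meltrin β), a sheddase of neuregulin that cushion development in the mouse heart requires, was the only ADAM called. ADAM19, on chromosome 5 from 156822542 to 157002783 (GRCh37), stood at 13.3 and 12.2 FPKM in ECsXAV and 5.59 and 4.64 FPKM in CPC. Both ECsXAV libraries were higher, by 2.50-fold on the means, with a log2 fold change of -1.17 (SE 0.13, adjusted p = 0.0287 from limma). Leaving out 1 library gave an adjusted p of 0.113 to 0.216, and no filter on low FPKM gave 0.075. Its span overlaps CYFIP2 and NIPAL4 on the other strand. ADAM9 (meltrin γ) lay the same way at 11.7 and 10.5 FPKM in ECsXAV and 7.77 and 5.83 FPKM in CPC, but was not called (log2 fold change -0.64, adjusted p = 0.133 from limma).

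The sheddases ADAM10 and ADAM17 differed little. ADAM10, which cuts Notch receptors and cadherins, had 25.1 and 23.6 FPKM in ECsXAV and 31.4 and 24.3 FPKM in CPC, with overlapping libraries. ADAM17, the tumour necrosis factor convertase, had 13.6 and 14.3 FPKM in ECsXAV and 16.0 and 14.6 FPKM in CPC. Their log2 fold changes were 0.17 (95% interval -0.22 to 0.57) and 0.12 (95% interval -0.16 to 0.41), so a 2-fold change of either lay outside the interval. ADAM11, which lacks a working protease site and is best known from the nervous system, was near the level of ADAM10, at 24.1 and 26.4 FPKM in ECsXAV and 22.14 and 22.03 FPKM in CPC, and was not called (log2 fold change -0.19, adjusted p = 0.449 from limma). ADAM22 and ADAM23, likewise without a working protease site, had log2 fold changes of 0.26 and 0.31.

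The other ADAMs above the filter were ADAM8, ADAM15 and ADAM28, with log2 fold changes of -0.34, -0.06 and 0.92. ADAM28 had 1.87 and 1.69 FPKM in ECsXAV and 6.71 and 2.59 FPKM in CPC, where CPC replicate 1 stood above the other 3 libraries (adjusted p = 0.295 from limma). As shares of the summed ADAM FPKM, ADAM19 took 12.6% and 11.7% in ECsXAV and 5.15% and 5.14% in CPC. ADAM9 took 10.5% ± 0.729 in ECsXAV and 6.81% ± 0.4998 in CPC, and ADAM10 took 23.1% ± 0.759 and 27.9% ± 1.43 (SD, n = 2). ADAM17 took 13.3% ± 0.555 and 15.4% ± 0.976, ADAM15 3.94% ± 0.019 and 3.99% ± 0.739, and ADAM12, which was below the filter, 0.153% ± 0.012 and 0.0981% ± 0.012 (SD, n = 2). The exact permutation p was 0.33 for ADAM9, ADAM10, ADAM12, ADAM17 and ADAM19 and 1 for ADAM15. The remaining ADAMs of the low group (ADAM5, ADAM7, ADAM18, ADAM20, ADAM21, ADAM32 and ADAM33), several of them known from testis, did not exceed 0.286 FPKM.

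**Figure D3:**
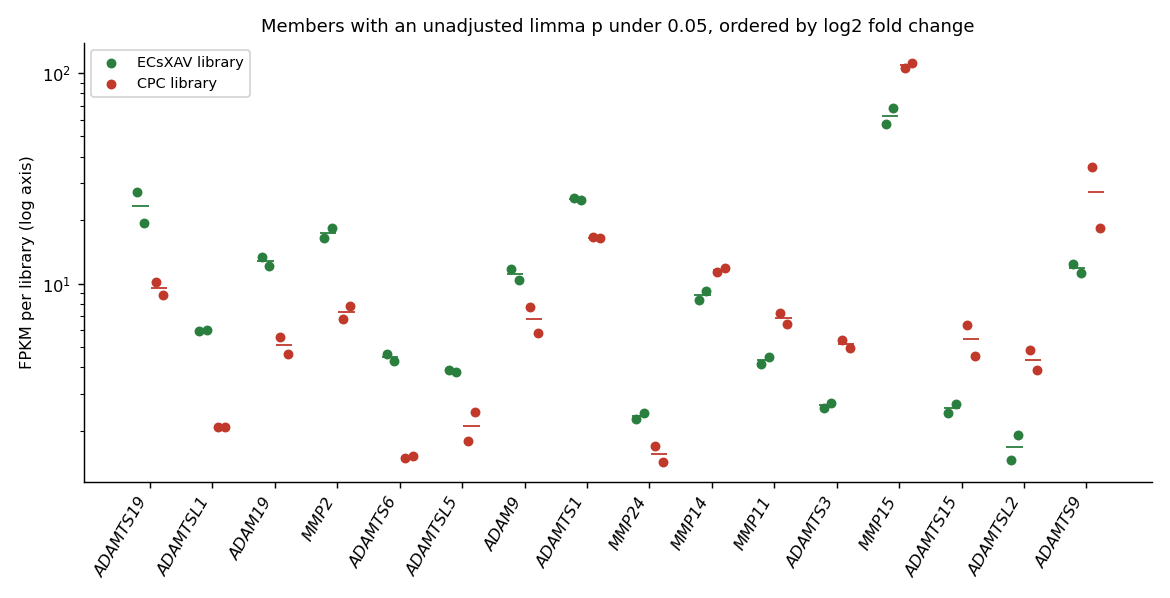
FPKM in each library (y axis, log scale) of the 16 members with an unadjusted limma p under 0.05 (x axis, ordered by log2 fold change), with ECsXAV libraries in green, CPC libraries in red and a short line at each group mean (n = 2). In each of them the groups do not overlap, which their choice by p from these same libraries favors. MMP15 stands above the others at 57.5 to 112 FPKM.

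Among the ADAMTS proteoglycanases, which cut versican and aggrecan, 3 members were above the filter with values in both directions. ADAMTS1 had 25.4 and 24.8 FPKM in ECsXAV and 16.6 and 16.5 FPKM in CPC, with replicates close to each other in both groups. Its log2 fold change of -0.58 (SE 0.10) was below a 2-fold change and had an adjusted p of 0.0627 from limma. ADAMTS9 lay the other way at 12.4 and 11.3 FPKM in ECsXAV and 36.0 and 18.3 FPKM in CPC. Its log2 fold change of 1.06 (SE 0.32, adjusted p = 0.179 from limma) depended on CPC replicate 1, and was 0.59 without that library and 1.53 without CPC replicate 2. ADAMTS15 had 2.44 and 2.68 FPKM in ECsXAV and 6.37 and 4.53 FPKM in CPC (log2 fold change 0.84, adjusted p = 0.0935 from limma). None of the 3 was called. ADAMTS4, ADAMTS5, ADAMTS8 and ADAMTS20 were below the filter, and ADAMTS5, a main aggrecanase of cartilage, did not exceed 0.044 FPKM.

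As shares of the summed ADAMTS FPKM, which was 96.1 and 89.4 in ECsXAV and 99.1 and 75.0 in CPC, ADAMTS1 took 26.4% and 27.8% in ECsXAV and 16.71% and 21.98% in CPC. ADAMTS9 took 12.9% and 12.6% in ECsXAV and 36.3% and 24.4% in CPC. ADAMTS19 took 28.2% and 21.8% in ECsXAV and 10.3% and 11.7% in CPC. The family sum overlapped between the groups while these shares did not, with ADAMTS9 the largest share in both CPC libraries. These shares were added after the values had been seen.

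Of the procollagen N-proteinases, which remove the amino propeptides of fibrillar collagens, ADAMTS3 had 2.58 and 2.73 FPKM in ECsXAV and 5.43 and 4.93 FPKM in CPC. It was higher in both CPC libraries by 1.95-fold on the means, with a log2 fold change of 0.76 (SE 0.12, adjusted p = 0.0557 from limma, not called). ADAMTS2 overlapped between the groups, with a log2 fold change of -0.40 (95% interval -1.08 to 0.28).

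ADAMTS6, whose loss in mice is known to disturb heart formation, was the only ADAMTS protease past the criterion in this fit. ADAMTS6, on chromosome 5 from 64444565 to 64777747 (GRCh37), stood at 4.62 and 4.30 FPKM in ECsXAV and 1.48 and 1.52 FPKM in CPC. Both ECsXAV libraries were higher, by 2.97-fold on the means, with a log2 fold change of -1.13 (SE 0.13, adjusted p = 0.0287 from limma). The adjusted p was 0.109 to 0.136 with 1 library left out and 0.0758 with no filter on low FPKM. ADAMTS19, which is known from heart valve disease, had the lowest log2 fold change of the 33 members. It had 27.1 and 19.5 FPKM in ECsXAV and 10.2 and 8.80 FPKM in CPC, higher in ECsXAV without overlap, but its wider spread (log2 fold change -1.19, SE 0.19) left it just above the threshold (adjusted p = 0.0523 from limma). ADAMTS19 passed with microRNA and other short RNA genes left out of the fit (adjusted p = 0.00448 from limma), with a pseudocount of 0.1 (0.0431) and with a mean of at least 5 FPKM (0.0474). With short RNA genes left out, 6 members were called, the 4 above with ADAMTS19 and ADAMTS9, beside 2.80% of all genes in that fit.

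The closest relative of ADAMTS6, ADAMTS10, which acts on fibrillin microfibrils, had a log2 fold change of 0.15 (95% interval -0.21 to 0.51). ADAMTS7, ADAMTS12 and ADAMTS13 (the von Willebrand factor protease) had log2 fold changes of 0.03, 0.03 and -0.07, with intervals inside a 2-fold change. ADAMTS16, ADAMTS17 and ADAMTS18 did not exceed 0.113 FPKM. ADAMTS16 had 0.0852 and 0.113 FPKM in ECsXAV and 0.0109 and 0 FPKM in CPC. For MMP2, MMP24, ADAMTS9 and ADAMTS19, named antisense genes overlap the span of the gene, as SAXO1 does for ADAMTSL1. Other members also overlap protein-coding genes of the opposite strand, among them ADAMTSL4 (MCL1), TIMP1 (SYN1), TIMP3 (SYN3), ADAM17 (IAH1), ADAM9 (TM2D2) and ADAMTS7 (MORF4L1). These overlaps are of whole gene spans, and exons were not compared. Strand use is not given for the FPKM, so reads of a partner could not be told apart where exons are shared.

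The ADAMTS-like proteins have the ancillary domains of ADAMTS enzymes without a protease, and several bind fibrillin. ADAMTSL1 (punctin), on chromosome 9 from 17906561 to 18910948 (GRCh37), was called. It had 5.93 and 6.01 FPKM in ECsXAV and 2.08 and 2.09 FPKM in CPC, so the replicates nearly coincided and the groups were 2.87-fold apart on the means. Its log2 fold change was -1.18 (SE 0.12, adjusted p = 0.0221 from limma, 0.0996 to 0.140 with 1 library left out and 0.070 with no filter). ADAMTSL2, which binds fibrillin-1 and LTBP1, lay the other way at 1.45 and 1.92 FPKM in ECsXAV and 4.83 and 3.87 FPKM in CPC (log2 fold change 0.995, adjusted p = 0.060 from limma). ADAMTSL5 had 3.897 and 3.803 FPKM in ECsXAV and 1.78 and 2.45 FPKM in CPC (log2 fold change -0.65, adjusted p = 0.124 from limma). Neither was called, although the groups did not overlap for either. ADAMTSL4, the most abundant of them and known from displacement of the lens, had 37.6 and 40.0 FPKM in ECsXAV and 41.6 and 38.3 FPKM in CPC, with overlapping libraries and a 95% interval of -0.25 to 0.32. ADAMTSL3 stayed at 0.270 to 0.379 FPKM.

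Promoter windows (RefSeq, GRCh38.p14, 250 bases before to 50 after the start) were matched by symbol for 44 of the 74 members, with the first entry used for ADAMTS10. Those of the called genes ADAM19, ADAMTS6 and ADAMTSL1 are shown, with those of MMP15 and MMP10 for contrast, as the member of highest level and a low member that was listed at 0 in CPC. MMP2 had no entry. Capitals mark the motifs searched on both strands, the TATA box (TATAAA), the AP-1 site (TGANTCA), the GC box (GGGCGG), the CCAAT box (CCAAT), the CRE (TGACGTCA) and the E-box (CACGTG), of which the CRE and E-box were added after the sequences had been read.
ADAM19, chr5:157575726-157576025, minus strand: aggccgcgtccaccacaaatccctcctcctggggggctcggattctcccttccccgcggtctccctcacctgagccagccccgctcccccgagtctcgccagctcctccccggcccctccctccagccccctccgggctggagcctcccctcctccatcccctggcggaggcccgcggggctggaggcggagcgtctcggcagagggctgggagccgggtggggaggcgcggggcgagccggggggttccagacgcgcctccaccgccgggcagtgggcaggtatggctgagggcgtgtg
ADAMTS6, chr5:65481871-65482170, minus strand: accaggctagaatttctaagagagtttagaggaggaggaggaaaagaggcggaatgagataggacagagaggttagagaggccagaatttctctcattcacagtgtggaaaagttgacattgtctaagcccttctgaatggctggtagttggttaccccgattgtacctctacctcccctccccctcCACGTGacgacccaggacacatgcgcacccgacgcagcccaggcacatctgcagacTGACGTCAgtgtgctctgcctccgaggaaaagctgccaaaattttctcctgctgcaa
ADAMTSL1, chr9:18473903-18474202, plus strand: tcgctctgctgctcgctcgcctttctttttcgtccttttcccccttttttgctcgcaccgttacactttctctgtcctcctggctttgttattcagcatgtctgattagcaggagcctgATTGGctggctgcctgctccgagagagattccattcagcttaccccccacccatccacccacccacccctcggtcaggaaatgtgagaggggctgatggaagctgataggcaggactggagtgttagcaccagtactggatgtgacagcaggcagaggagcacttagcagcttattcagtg
MMP15, chr16:58025504-58025803, plus strand: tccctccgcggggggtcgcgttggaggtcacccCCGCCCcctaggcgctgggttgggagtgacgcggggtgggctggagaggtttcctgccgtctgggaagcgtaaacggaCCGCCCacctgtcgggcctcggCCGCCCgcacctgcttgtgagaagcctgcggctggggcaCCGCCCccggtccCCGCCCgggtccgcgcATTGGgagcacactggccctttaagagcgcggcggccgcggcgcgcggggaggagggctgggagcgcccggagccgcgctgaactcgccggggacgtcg
MMP10, chr11:102780579-102780878, minus strand: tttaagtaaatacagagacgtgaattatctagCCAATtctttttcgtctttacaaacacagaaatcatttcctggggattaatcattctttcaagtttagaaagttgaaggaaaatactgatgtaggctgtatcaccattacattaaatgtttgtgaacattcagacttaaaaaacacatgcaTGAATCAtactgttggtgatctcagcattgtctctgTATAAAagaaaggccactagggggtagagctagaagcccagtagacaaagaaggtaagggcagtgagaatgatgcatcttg

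The ADAM19 window held none of the 6 letter strings, that of ADAMTS6 held a CRE at -7 and an E-box at -63 from the start site, and that of ADAMTSL1 held a CCAAT box on the opposite strand at -131. MMP15 held 5 GC boxes between -217 and -65 and 1 CCAAT box, and MMP10 held a TATA box at -31, an AP-1 site at -67 and a CCAAT box at -218. Over all 35116 windows of the table, 11.5% held the TATA box, 7.71% the AP-1 site, 44.95% the GC box, 34.6% the CCAAT box, 1.85% the CRE and 7.26% the E-box. By expression level, a GC box was present in 22 of 25 tested members (88.0%), in 8 of 19 below the filter (42.1%) and in 1 of 9 listed at 0 in all libraries. A TATA box was present in 2 of the 25, 7 of the 19 and 5 of the 9. The ratio of observed to expected CpG dinucleotides was over 0.6 in 20 of the 25 tested members, 7 of the 19 below the filter and 1 of the 9 listed at 0, beside 48.8% of all windows. These are descriptions of the windows, and binding was not measured.

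**Figure D4:**
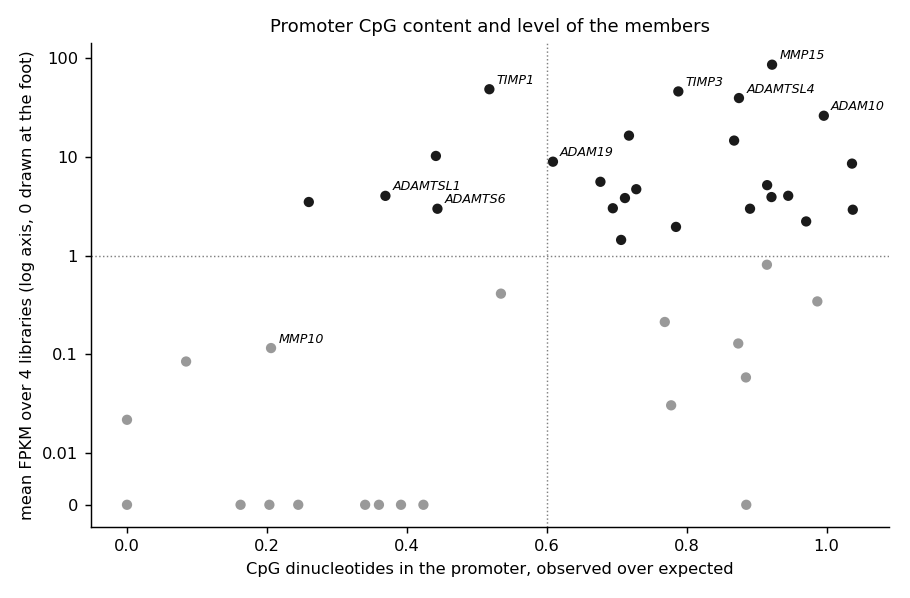
Mean FPKM over the 4 libraries (y axis, log scale, with 0 drawn at the foot) against the ratio of observed to expected CpG dinucleotides in the promoter window (x axis) for the 44 matched members. Black points are the 25 members tested, of which 20 lie right of the dotted line at 0.6, and 1 of the 9 members at 0 does.

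The transcript table held 115 transcripts of the 74 members, with more than 1 transcript for 20 of them. Of the 35 member transcripts with a mean of at least 1 FPKM, limma called 0, with 17 at an unadjusted p under 0.05 and a smallest adjusted p of 0.146. Over all 16504 transcripts tested, 0.0727% were called and 13.1% had an unadjusted p under 0.05. ADAM19 and ADAMTS6 are each listed with 1 transcript, so the gene and transcript values are the same. For ADAMTSL1, transcript NM_052866 had 2.86 and 3.99 FPKM in ECsXAV and 0.854 and 0.381 FPKM in CPC. Transcript NM_001040272 had 3.07 and 2.03 FPKM in ECsXAV and 1.22 and 1.71 FPKM in CPC. Both were higher in ECsXAV without overlap, with log2 fold changes of -1.455 and -0.52 (adjusted p = 0.220 and 0.529 from limma).

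For MMP2, transcript NM_004530 had 10.4 and 9.16 FPKM in ECsXAV and 3.21 and 6.50 FPKM in CPC. Transcript NM_001127891 had 6.10 and 9.26 FPKM in ECsXAV and 3.62 and 1.31 FPKM in CPC. Their sum was steady between replicates while the split was not, since NM_001127891 took 53.0% of the gene in CPC replicate 1 and 16.8% in CPC replicate 2. The split between transcripts of 1 gene is an estimate of the software, and neither MMP2 transcript was called.

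**Figure D5:**
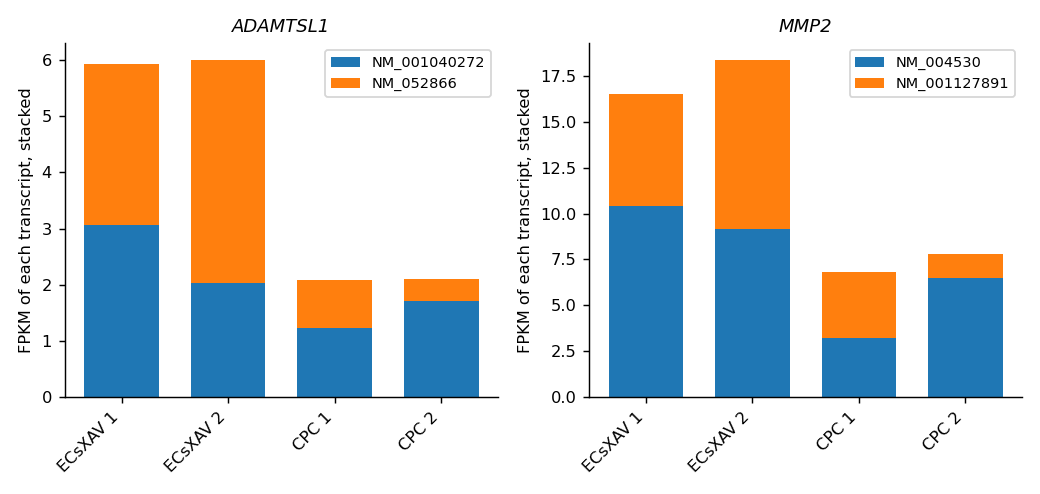
FPKM of the transcripts of ADAMTSL1 and MMP2 (y axis, stacked) in each library (x axis). The totals are close between replicates of a group and higher in ECsXAV, while the share of each transcript differs between replicates, from 16.8% to 53.0% for NM_001127891 of MMP2 in CPC.

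Genes that work with these proteases were read from lists of activators, inhibitors, regulators and substrates. Of 65 such genes tested, 9 were called, 7 higher in ECsXAV and 2 higher in CPC, beside 2.15% called among all genes. PCSK6 (PACE4), a proprotein convertase, had 3.39 and 3.89 FPKM in ECsXAV and 1.05 and 0.989 FPKM in CPC (log2 fold change -1.20, adjusted p = 0.0310 from limma). Both CPC libraries were lower, as for MMP2. The other tested convertases, PCSK5, FURIN and PCSK7, were higher in CPC without overlap and were not called (log2 fold changes 0.85, 0.34 and 0.13). Called as higher in CPC, TSPAN15, a tetraspanin that partners ADAM10, had 11.04 and 14.63 FPKM in ECsXAV and 44.3 and 43.0 FPKM in CPC. This was 3.40-fold higher on the means (log2 fold change 1.70, adjusted p = 0.0191 from limma), while ADAM10 itself was not called. SPOCK3 (testican-3), an inhibitor of membrane-type MMPs, had 0.348 and 0.418 FPKM in ECsXAV and 5.35 and 3.63 FPKM in CPC (log2 fold change 1.97, adjusted p = 0.0231 from limma).

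Of the 18 matrix substrates tested, 5 were called and all were higher in ECsXAV (COL1A1, COL3A1, COL4A1, LAMB1 and SPARC), beside 1.44% of all genes called in that direction, with a list median of -0.45 beside -0.0045 over all genes. SPARC, a collagen-binding matricellular protein, was 3.01-fold higher on the means, at 106 and 121 FPKM in ECsXAV and 36.8 and 38.8 FPKM in CPC. Of the 14 surface and ligand substrates tested, which ADAMs shed, 0 were called by limma, beside 2.15% of all genes. The list is too short for this count to be told apart from that share. BMP1, a tolloid-family procollagen C-proteinase, was the only other metzincin above the filter and had 8.895 and 9.23 FPKM in ECsXAV and 4.63 and 4.36 FPKM in CPC. Its adjusted p of 0.0358 from limma passed but its fold change of FPKM + 1 was under 2 (log2 fold change -0.87). The count of 9 was 0 to 3 with 1 library left out and 1 with no filter on low FPKM. The higher matrix transcripts, LUM and TAGLN stood in the same libraries as the 4 called members. CNN1 and the low stromal markers DCN, THY1, DDR2, PDGFRB and TCF21 were also higher there. PDGFRA, POSTN, ACTA2 and MYH11 were not higher there on the means. No relation of these genes to the called members was tested.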

How the data were processed

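Poly-A RNA of 4 libraries, 2 per group, was sequenced (Illumina TruSeq). The authors deposited FPKM per gene and per transcript, computed with Cufflinks (version 2.1.1 in the methods) on UCSC gene annotations and hg19. TopHat 1.3.3 is named in the submitters' processing notes, the methods name another aligner for the counts, and the strand setting and scaling of the FPKM are not given in the sources used here. Groups came from the sample labels.

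For symbols with several entries the one with the highest mean was used. Tests used limma 3.58.1 in R 4.3.3 (log2 of FPKM + 1, intensity trend, mean of at least 1 FPKM, adjusted p under 0.05 and fold over 2, the study's criterion, here on FPKM + 1), checked on simulated data. Tables and figures used pandas 2.3.3 and NumPy 2.4.6 under Python 3.11.15, with matplotlib 3.10.9, and loci GENCODE release 44 on GRCh37.

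Named members are those past the criterion, with an unadjusted p under 0.05, with a fold over 2, the best known and the 10 of highest mean, and others are given in ranges. One gene of the lists is counted but not reported here by name. The members and gene lists were chosen with earlier results of these data known. Alternatives were no filter, a pseudocount of 0.1, a mean of at least 5 FPKM, quantile and median-of-ratios scaling, no trend, a replicate block, short RNA genes left out, summed loci, isoform sums and each library left out.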

Additional observations from a re-analysis of the deposited data

How the results depend on the processing

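The 4 calls among members and the 9 among related genes rest on 2 libraries per group. A fit with 1 library left out assumes that the lone library varies like the other group, and the member calls did not hold in it. With no filter on low FPKM, 0 of 60 members and 1 related gene were called, beside 20 of 18772 genes. The other settings called 3 to 6 members, beside 1.42% to 2.85% of all genes tested. The count was 3 at a mean of at least 5 FPKM, where ADAMTS6 and ADAMTSL1 are not tested, and 6 without short RNA genes. The log2 fold changes of the 4 called members kept their sign in every setting. Shares from the isoform table were within the spread of those given. With 1 library left out, the difference in share (CPC minus ECsXAV, percentage points) ran from -3.15 to 3.87 for TIMP1, -2.44 to 5.90 for TIMP3, -0.47 to 0.58 for ADAM15 and -3.62 to 0.38 for ADAM11, changing direction, and the other shares given kept theirs.

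The replicate numbers of the labels are not stated to pair cultures. With the number as a replicate block, 4 members were called, with ADAMTS19 in (adjusted p = 0.0431 from limma) and ADAMTS6 out (0.0541), and over all genes 176 against 266. The differences of replicate 1 minus replicate 2 in the groups had a rank correlation of 0.356 and a Pearson's r of 0.035 across genes, which are not independent.

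The direction of a member's fold change reversed only when 1 library was left out and only for members with small changes. Over the 4 such fits, the log2 fold change spanned -0.0041 to 0.35 for ADAM10, -0.058 to 0.57 for ADAM22, -0.18 to 0.24 for ADAMTS12, -0.034 to 0.092 for ADAMTS7, -0.020 to 0.097 for ADAMTSL4, -0.20 to 0.11 for TIMP1 and -0.096 to 0.097 for TIMP3.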
